A study of Homo sapiens with 4 samples.

Results

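The genes described here encode the cytosolic HSP90 chaperones, 6 of their co-chaperones and the heat shock transcription factors HSF1 and HSF2. They were taken by symbol from the deposited comparison of H2O2-treated with untreated HCT116 cells, and all 10 named genes were found among the 16376 genes listed. HCT116 is an established human colon cancer cell line. The study holds 2 samples labelled H2O2 and 2 labelled Control, the first from cells exposed to hydrogen peroxide and the second from untreated cells, with no dose or exposure time in the labels. Whether the samples of a group are separate cultures is not stated in the labels. The p-values therefore reflect only how far these samples differ, and that spread may be technical.

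HSP90 is an ATP-driven chaperone that works as a dimer and completes the folding of client proteins, among them steroid receptors and many protein kinases. Co-chaperones set its cycle: STIP1 (HOP) hands clients over from HSP70, CDC37 brings kinases, AHSA1 (AHA1) stimulates the ATPase, and PTGES3 (p23) binds late in the cycle. HSF1 is held inactive in unstressed cells, in part by HSP90 itself, and when protein damage draws chaperones away it trimerises and binds heat shock elements, which are inverted repeats of GAA units in front of heat shock genes.

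The authors deposited, for each gene, the mean normalized count of each group (read counts divided by a size factor per library) and a test. From these means the whole read counts of all 4 libraries could be recovered. Over all listed genes the H2O2 libraries summed to 7365032 and 6858809 reads and the Control libraries to 7309731 and 6892854. Because replicate numbers are missing from the table, the libraries of a group are told apart here by depth, as deeper and shallower. Control was read as the first group of the table (A) and H2O2 as the second (B), following the table's name, and all directions given here depend on that reading. The Control libraries differed from each other more than the H2O2 libraries did, with a chi-square per gene of 7.13 between the Control pair and 2.38 between the H2O2 pair. Of 8 colon epithelial markers all were listed, with summed normalized counts of 9432 and 9023 in H2O2 libraries and 7596 and 9026 in Control libraries. None of the 8 was called, and their log2 fold changes in the authors' deposited table ran from -0.22 (CDX2) to 0.30 (KRT8), at a median of -0.016. Of 15 fibroblast, leukocyte and endothelial markers 4 were listed. They were COL1A1 and COL3A1, with summed normalized counts of 797 and 736 in H2O2 libraries and 992 and 915 in Control libraries, and CD14 and KDR, each at 18.3 or less in every library. COL1A1 was lower and CD14 higher with H2O2 at an adjusted p under 0.05 in the authors' deposited table, and the part of other cell types in the results below was not tested.

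Of the 10 genes, 2 rose with H2O2 and none fell at an adjusted p under 0.05 in the authors' deposited table, against 2.58% of all listed genes called higher, 4.62% called lower and 7.19% in either direction. The 2 were CHORDC1 and AHSA1, and limma, a linear model run on the recovered libraries, called the same 2 genes. Over all listed genes limma called 1.52% higher and 2.58% lower, 4.1% together. In 7 of the 10 genes both H2O2 libraries lay above both Control libraries, as they did in 26.3% of all listed genes. No member lay wholly below, as 25.6% of all listed genes did. Before adjustment, 8 of the 10 genes had a p under 0.05 in the authors' deposited table, against 19.6% of all listed genes. Of these 7 were higher, against 7.72% of all listed genes, and CDC37 was lower. The median log2 fold change of the 10 genes was 0.32, and that of all listed genes was 0.00029. These are amounts of RNA relative to all RNA of a culture, in which fewer cells of a kind and less RNA per cell cannot be told apart.

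**Figure D1:**
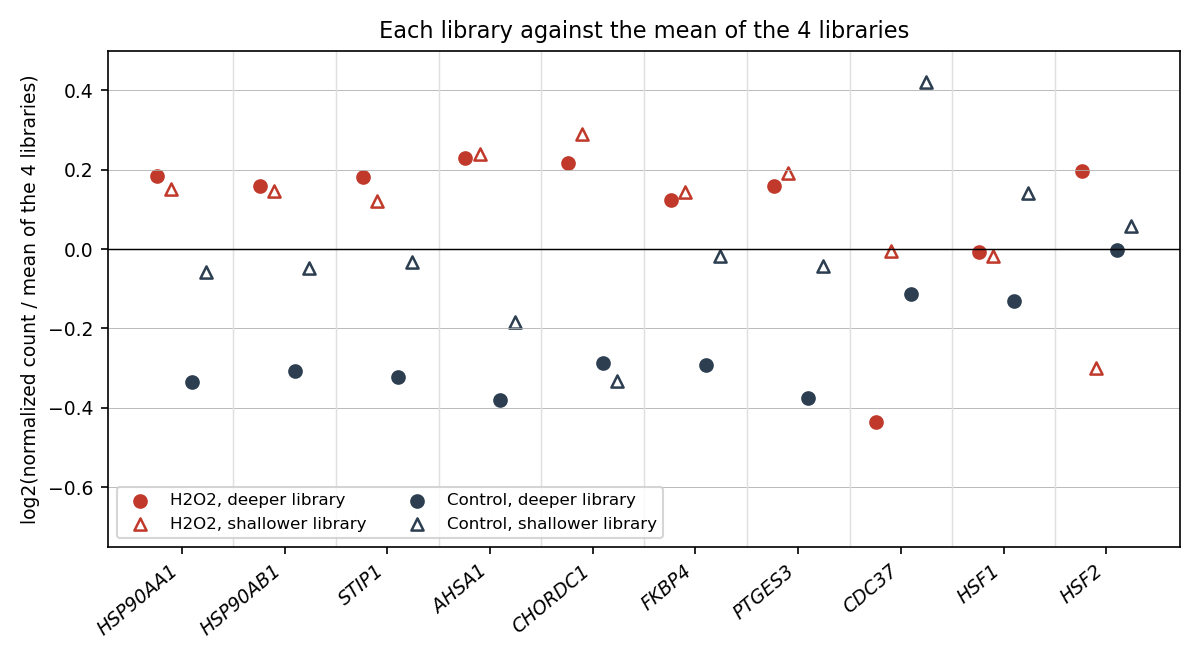
Normalized count of each gene in each library, as log2 of its ratio to the mean of the 4 libraries. H2O2 libraries are red and Control libraries dark, with circles for the deeper and triangles for the shallower library of each group. In 7 of 10 genes both H2O2 libraries lie above both Control libraries, and in 9 of 10 the shallower Control library lies above the deeper one.

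The 2 Control libraries were not alike for these genes. In 9 of 10 genes, all but CHORDC1, the shallower Control library was the higher of the pair, against 51.2% of all listed genes. The median log2 ratio of the shallower to the deeper Control library was 0.27 over the 10 genes and 0.0094 over all listed genes. In the H2O2 pair the shallower library was the higher one for 5 of the 10 genes, against 50.4% of all listed genes. For HSP90AA1 the log2 ratio of the shallower to the deeper library was -0.032 in the H2O2 pair and 0.28 in the Control pair. Without the shallower Control library limma called 7 members higher, and without the deeper one it called 3 higher and CDC37 lower. In these 2 fits the spread within a group comes from the H2O2 pair alone. Without either H2O2 library limma called 0 of the 10 genes.

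Sequences upstream of annotated transcription starts are shown for the genes whose promoter windows hold a heat shock element of 3 units, since these letters are the known binding sequence of HSF1 and HSF2. The windows, from RefSeq on GRCh38.p14, run from 250 bases before to 50 bases after each start. They were searched for 2 units (GAANNTTC or TTCNNGAA) and for 3 units, in which GAA and TTC alternate with 2 free bases between units. Each pattern set is its own reverse complement and so covers both strands, matches may overlap, and each 3-unit match holds 2 of the shorter ones. Capitals mark the GAA and TTC units of all matches, each sequence is given 5′ to 3′ on the strand of its gene, and position 0 is the first transcribed base.
HSP90AA1 at chr14:102087090-102087147, minus strand, -103 to -46: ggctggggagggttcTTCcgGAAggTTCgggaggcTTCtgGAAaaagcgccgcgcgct
HSP90AB1 at chr6:44247763-44247858, plus strand, -180 to -85: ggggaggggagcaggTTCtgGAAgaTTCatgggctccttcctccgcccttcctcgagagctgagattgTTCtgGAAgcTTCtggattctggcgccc
CHORDC1 at chr11:90223050-90223124, minus strand, -75 to -1: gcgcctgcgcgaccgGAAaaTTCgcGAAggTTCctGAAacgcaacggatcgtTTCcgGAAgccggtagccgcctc

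Of the 10 genes 8 were matched to 14 windows in all, and 3 of them (HSP90AA1, HSP90AB1 and CHORDC1) held a 3-unit match. Among all genes with RefSeq windows, 0.608% had such a window and 16.2% had a window with a 2-unit match. CHORDC1 held 3 overlapping 3-unit matches, from -60 to -38, which make up 1 run of 5 units. HSP90AB1 held 2 separate ones, from -165 to -153 and from -112 to -100, and HSP90AA1 held 1 from -88 to -76 with a 2-unit match at -68 to -61. HSP90AA1 has 2 annotated starts and HSP90AB1 has 3, and in each the match stood before the start farthest into the gene. Of the other matched genes STIP1 held a 2-unit match, from 13 to 20, just inside the transcript, and AHSA1, PTGES3, CDC37 and HSF2 held neither pattern in these windows. A match is a string of letters and no evidence of binding here. The other 2 genes, HSF1 and FKBP4, were not matched to a window. The search of the 10 genes left out windows on chromosome 8, which holds HSF1, while the shares of all genes kept them.

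**Figure D2:**
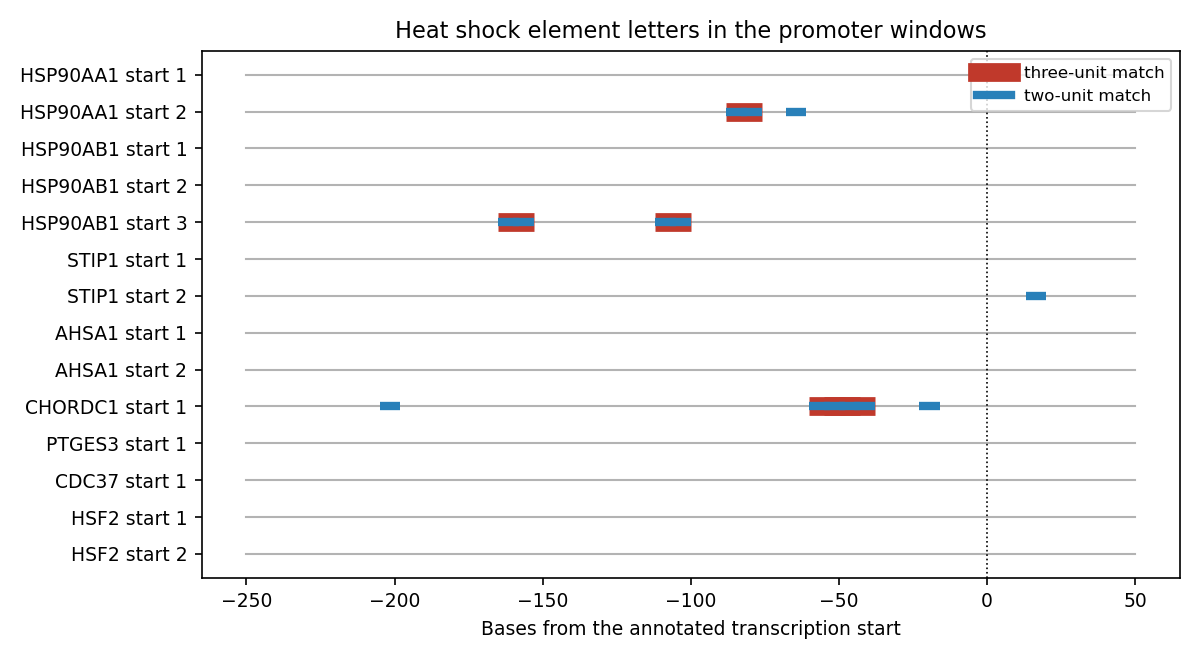
Positions of heat shock element letters in the 14 promoter windows of 8 genes, in bases from the annotated transcription start. Wide red bars are 3-unit matches and narrow blue bars are 2-unit matches; the red bars stand in 1 window each of HSP90AA1, HSP90AB1 and CHORDC1.

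CHORDC1, which encodes a zinc-binding co-chaperone also known as CHP1 or morgana, had 647.7 and 681.3 normalized counts in H2O2 libraries and 456.3 and 442.4 in Control libraries. Both H2O2 libraries were above both Control libraries, and its Control pair, with a log2 ratio of -0.044, was the closest among the 10 genes. It rose 1.48-fold in the authors' deposited table (adjusted p = 0.0019). limma gave a log2 fold change of 0.56 ± 0.11 (SE, 2 libraries per group, adjusted p = 0.0112). In limma its log2 fold change stayed between 0.53 and 0.60 whichever of the 4 libraries was left out. With a lone H2O2 library limma takes the spread from the Control pair alone, so p-values of these fits are not given.

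AHSA1, the activator of the HSP90 ATPase, had 2817 and 2837 normalized counts in H2O2 libraries and 1846 and 2117 in Control libraries. The H2O2 pair was nearly equal and lay well above both Control libraries. AHSA1 rose 1.43-fold in the authors' deposited table (adjusted p = 0.00272), and limma gave a log2 fold change of 0.52 ± 0.11 (SE, adjusted p = 0.0158). limma did not call it without the deeper or without the shallower H2O2 library (adjusted p = 0.217 and 0.179). Its log2 fold change was 0.61 against the deeper Control library alone and 0.42 against the shallower alone. None of the 75-base words of its longest transcript occurred in other genes' transcripts, and 2.81% of its exonic bases overlap a gene on the opposite strand.

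The HSP90 genes themselves were higher in both H2O2 libraries without passing the threshold. HSP90AA1, the stress-inducible form HSP90 alpha, had 15046 and 14713 normalized counts in H2O2 libraries and 10490.0 and 12718 in Control libraries. HSP90AB1, the form HSP90 beta that cells make constitutively, had 3829 and 3797 in H2O2 libraries and 2772 and 3315 in Control libraries. For both genes the H2O2 libraries were close together and the Control libraries far apart, without overlap between the groups. The ratio of group means was 1.28 for HSP90AA1 (adjusted p = 0.241) and 1.25 for HSP90AB1 (adjusted p = 0.122) in the authors' deposited table. In limma the log2 fold change was 0.37 ± 0.13 for HSP90AA1 (SE, adjusted p = 0.142) and 0.33 ± 0.12 for HSP90AB1 (SE, adjusted p = 0.126). In limma the log2 fold change of HSP90AA1 was 0.23 without the deeper Control library and 0.50 without the shallower one. That of HSP90AB1 was 0.20 and 0.46 in the same 2 fits. With a lone Control library these fits cannot measure the spread within Control, so their p-values are not given. The values of both genes carry some uncertainty from shared sequence. Transcripts of other genes, chiefly the pseudogene HSP90AA2P and the opposite-strand gene WDR20, hold 9.31% of the 75-base words of HSP90AA1. Those of the pseudogenes HSP90AB3P and HSP90AB2P hold 5.35% of the words of HSP90AB1.

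The balance between the 2 HSP90 forms shifted by less than 1 percentage point. HSP90AA1 took 79.7% (95% Wilson interval 79.1 to 80.3) and 79.5% (78.9 to 80.1) of the reads of both genes in the deeper and shallower H2O2 libraries. It took 79.1% (78.4 to 79.8) and 79.3% (78.7 to 79.95) in the deeper and shallower Control libraries. These intervals cover counting error only, and they overlap between the groups. The mean share was 0.388 percentage points higher with H2O2, against an SD of 0.162 points within the Control pair, and 2 libraries against 2 cannot give an exact permutation p below 0.333. Per exonic length the share was 69.1% and 68.8% in H2O2 libraries and 68.2% and 68.5% in Control libraries.

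**Figure D3:**
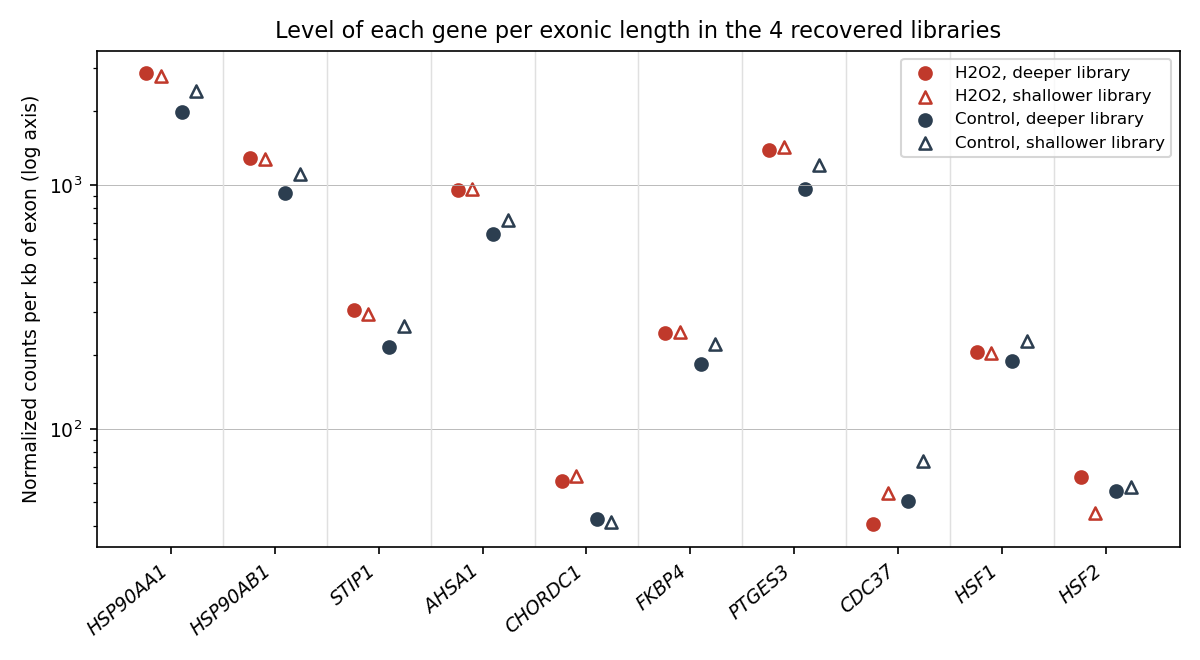
Normalized counts per kb of exon for the 10 genes on a log axis, with H2O2 libraries (red) left of Control libraries (dark), and circles for the deeper and triangles for the shallower library. HSP90AA1 stands highest in both groups, and CHORDC1, CDC37 and HSF2 lie lowest and close together, between 40.6 and 73.6 over all libraries.

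Per exonic length the members spanned a wide range of levels. HSP90AA1 averaged 2835 normalized counts per kb of exon with H2O2 and 2211 in Control, which put it at rank 30 of 13948 genes with a known exonic length. PTGES3, HSP90AB1 and AHSA1 followed at ranks 112, 128 and 222. STIP1, FKBP4 and HSF1 stood at ranks 1283, 1648 and 1856. HSF2, CDC37 and CHORDC1 lay near the middle of all genes, at ranks 6520, 6567 and 6790, with 54.3, 47.7 and 62.4 normalized counts per kb with H2O2 and 56.5, 62.2 and 42.2 in Control. Over the 4 libraries most neighbours in this order overlapped. The gaps without overlap lay between HSP90AA1 and PTGES3, between AHSA1 and STIP1, and between HSF1 and the lowest 3 genes. The lengths come from GENCODE 29, an annotation on another build than the table's hg19. They count every annotated exon of a gene, and for CHORDC1 they come to 10655 bases, against 5361 in its longest transcript.

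Another 3 co-chaperones were higher in both H2O2 libraries without passing the threshold. PTGES3, the p23 protein of the closed HSP90 complex, had 4736 and 4847 normalized counts in H2O2 libraries and 3271 and 4118 in Control libraries. STIP1, the adaptor between HSP70 and HSP90, had 1430 and 1370 in H2O2 libraries and 1007 and 1232 in Control libraries. FKBP4 (FKBP52), the immunophilin of steroid receptor complexes, had 1275 and 1294 in H2O2 libraries and 956.6 and 1157 in Control libraries. In all 3 genes both H2O2 libraries exceeded both Control libraries, and the shallower Control library stood nearer to the H2O2 pair. None passed the threshold in the authors' deposited table, at a ratio of 1.30 for PTGES3 (adjusted p = 0.0706), 1.25 for STIP1 (adjusted p = 0.104) and 1.22 for FKBP4 (adjusted p = 0.177). limma gave log2 fold changes of 0.38 ± 0.12 for PTGES3, 0.33 ± 0.12 for STIP1 and 0.29 ± 0.12 for FKBP4 (SE, adjusted p = 0.096, 0.133 and 0.181). In limma the log2 fold changes of these 3 genes were 0.55, 0.47 and 0.42 without the shallower Control library. Without the deeper one they fell to 0.22, 0.18 and 0.15. For FKBP4, 11.3% of exonic bases overlap genes on the opposite strand, so reads of either strand cannot be told apart there unless the counting used strand.

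CDC37, the co-chaperone that loads kinases onto HSP90, stood apart from the other co-chaperones. It had 123.6 and 166.4 normalized counts in H2O2 libraries and 154.3 and 223.8 in Control libraries, from 128 and 160 reads with H2O2 and 161 and 218 in Control. The groups overlapped, and in each of them the shallower library was the higher one. The ratio of means was 0.767 in the authors' deposited table (adjusted p = 0.199), and limma gave -0.37 ± 0.20 on the log2 scale (SE, adjusted p = 0.303). The limma value was -0.64 without the deeper Control library and -0.11 without the shallower one.

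The heat shock factors showed no difference that these libraries could resolve. HSF1, the main activator of the heat shock response, had 1095 and 1087 normalized counts in H2O2 libraries and 1005 and 1214 in Control libraries. HSF2, a related factor that can pair with HSF1, had 171.8 and 121.7 in H2O2 libraries and 149.5 and 156.0 in Control libraries. For HSF1 the Control libraries enclosed the H2O2 pair, and for HSF2 the H2O2 libraries enclosed the Control pair. The ratio of means was 0.983 for HSF1 (adjusted p = 0.98) and 0.961 for HSF2 (adjusted p = 0.949) in the authors' deposited table. The 95% interval of limma's log2 fold change ran from -0.27 to 0.23 for HSF1 and from -0.46 to 0.31 for HSF2. The sign of neither was stable. HSF1 stood at 0.12 without the shallower Control library and at 0.0026 under upper-quartile scaling, and HSF2 stood at 0.17 without the shallower H2O2 library.

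**Figure D4:**
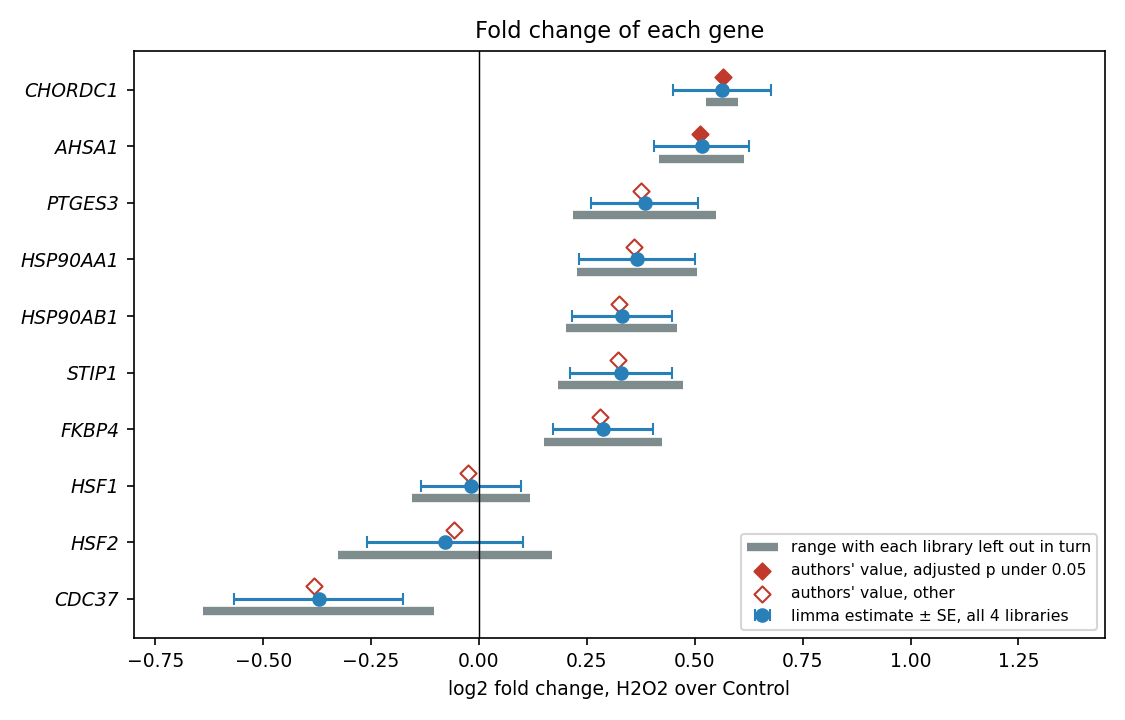
Log2 fold change of each gene, H2O2 over Control, in the order of the authors' values. Diamonds are the authors' deposited values, filled at an adjusted p under 0.05, points are limma estimates with SE on 4 libraries, and grey bars span the estimates with each library left out in turn. The bars of HSF1 and HSF2 cross 0, those of the other 8 genes do not, and CHORDC1 has the shortest bar.

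In the order of the authors' log2 fold changes, CHORDC1 (0.56) and AHSA1 (0.51) stood first, followed by PTGES3 (0.37), HSP90AA1 (0.36), HSP90AB1 (0.33), STIP1 (0.32) and FKBP4 (0.28). HSF1 (-0.024), HSF2 (-0.058) and CDC37 (-0.38) came last. The SE of the limma estimate lay between 0.11 and 0.13 for the first 7 of them, so most neighbours were within 1 SE of each other. CHORDC1 ranked 941st and AHSA1 1049th of 16376 genes by fold change from the highest, and FKBP4 2367th.

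Of 23 listed genes among other known HSF1 targets (HSP70, HSP40 and small heat shock proteins and others), the authors' deposited table called 13 higher and none lower and left 10 uncalled, at a median log2 fold change of 0.57. That is 56.5% called higher, against 2.58% of all listed genes. limma called 11 of them higher, against 1.52% of all listed genes. DNAJB1, an HSP40 partner of HSP70, had 1395 and 1851 normalized counts in H2O2 libraries and 767.8 and 918.7 in Control libraries. HSPH1, a nucleotide exchange factor of HSP70, had 1104 and 1168 in H2O2 libraries and 637.4 and 561.5 in Control libraries. In the authors' deposited table their log2 fold changes were 0.94 and 0.92, above the 0.56 of CHORDC1. HSPA1B rose 2.97-fold there (adjusted p = 1.43e-29), but its near-identical copy HSPA1A and other genes share 73.2% of its words, which leaves the value uncertain. HSPA1A, given here because of that shared sequence, was called higher there too, at 3.18-fold (adjusted p = 0.000126). Its reads were few, 46 and 57 in H2O2 libraries and 18 and 15 in Control libraries.

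Of 37 other HSP90 paralogs and co-chaperones, all listed, the authors' deposited table called 1 higher and 3 lower and left 33 uncalled, at a median log2 fold change of 0.10. These shares, 2.70% higher and 8.11% lower, stood near the 2.58% and 4.62% of all listed genes. Both H2O2 libraries lay above both Control libraries in 16 of the 37 and below both in 8. Over all listed genes 26.3% lay above and 25.6% below. Before adjustment 11 of the 37 had a p under 0.05 in the authors' deposited table, against 19.6% of all listed genes. limma called none of the 37 higher and 1 lower. PPID, the cyclophilin co-chaperone, was the higher one, with 1152 and 1202 normalized counts in H2O2 libraries and 813.8 and 984.4 in Control libraries. Its rise of 1.31-fold passed there (adjusted p = 0.0395) but not under limma (adjusted p = 0.0727). TSC1 and FLCN, both tumour suppressors, were called lower in the authors' deposited table, at ratios of 0.753 for TSC1 and 0.698 for FLCN. Neither was called by limma (adjusted p = 0.0833 and 0.0595). FLCN is an HSP90 client rather than a co-chaperone, though it was kept in this list. AARSD1 fell to 2 and 7 reads in H2O2 libraries, against 37 and 19 in Control libraries, but 94.0% of its 75-base words are shared with other genes, chiefly the read-through gene PTGES3L-AARSD1. PPID and FLCN are also uncertain, with 23.8% and 27.3% of words shared, chiefly with overlapping genes. The endoplasmic reticulum and mitochondrial paralogs HSP90B1 and TRAP1, named here after their values were seen, were uncalled. In the authors' deposited table HSP90B1 stood at 0.19 (adjusted p = 0.434) and TRAP1 at 0.16 (adjusted p = 0.52) on the log2 scale.

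Of 14 listed genes among other HSF family members and HSF1 regulators, the authors' deposited table called none higher and 1 lower and left 13 uncalled, at a median log2 fold change of 0.0034. The share called lower was 7.14%, near the 4.62% of all listed genes. The lower one was HSF4, a factor best known from the lens, with 99.4 and 90.5 normalized counts in H2O2 libraries and 146.7 and 163.2 in Control libraries. It had a ratio of 0.613 in the authors' deposited table (adjusted p = 0.00896), and limma called it too (adjusted p = 0.0318). HSF4 is uncertain, since 31.4% of its exonic bases overlap another gene on the same strand.

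**Figure D5:**
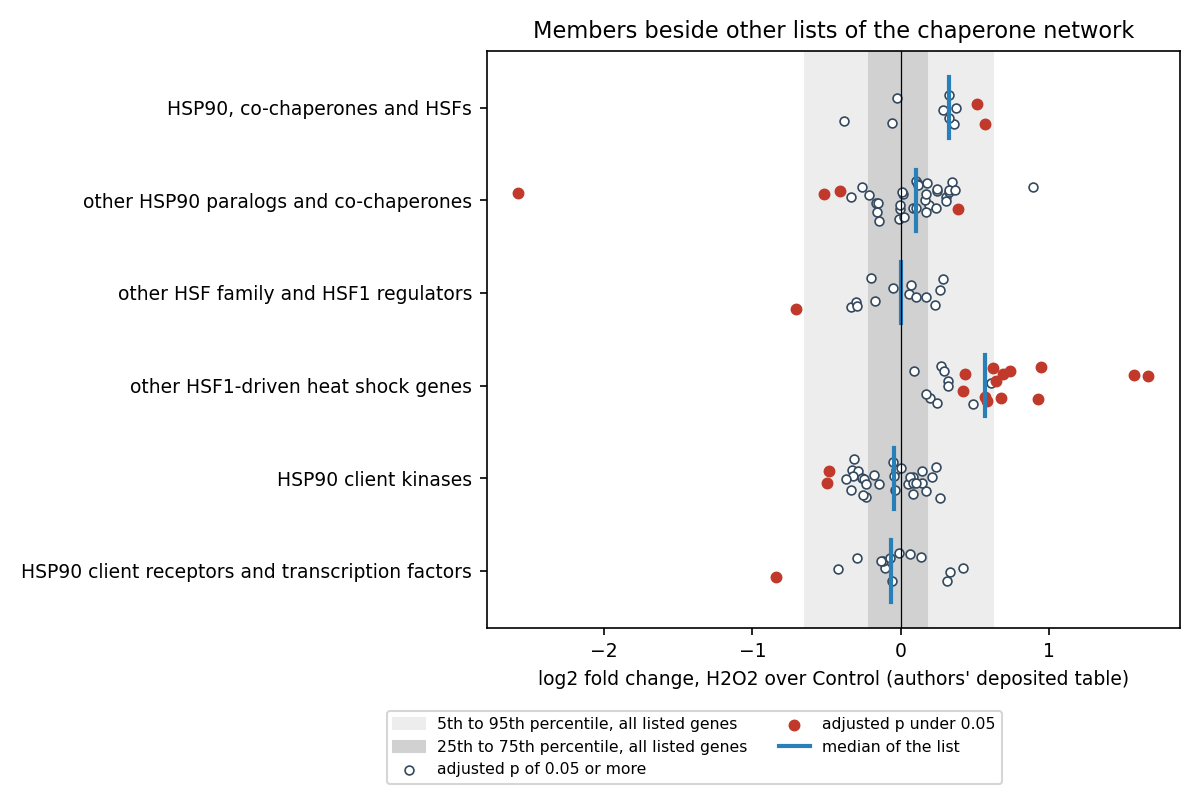
Log2 fold change, H2O2 over Control, of each gene in 6 lists, from the authors' deposited table. Filled red points have an adjusted p under 0.05, blue bars are list medians, and grey bands span the 25th to 75th and the 5th to 95th percentile of all listed genes. The median is 0.32 for the 10 genes, 0.57 for other HSF1 targets and 0.10 for other HSP90 paralogs and co-chaperones.

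Among genes for HSP90 client proteins few were called. Of 32 client kinases 2 were lower and none higher in the authors' deposited table, at a median log2 fold change of -0.048. They were IKBKB, the NF-kB kinase, at a ratio of 0.708 (adjusted p = 0.00856) and BRAF, a kinase of the MAP kinase pathway, at 0.714 (adjusted p = 0.0416). limma called IKBKB (adjusted p = 0.0234) but not BRAF (adjusted p = 0.0792). Of 14 listed client receptors and transcription factors 1, the telomerase gene TERT, was lower and none higher, at a median of -0.066. TERT had 53.1 and 62.4 normalized counts in H2O2 libraries and 103.5 and 103.7 in Control libraries, a ratio of 0.557 in the authors' deposited table (adjusted p = 0.00736), and limma called it too (adjusted p = 0.0283). The shares called lower, 6.25% and 7.14%, stood near the 4.62% of all listed genes. Both H2O2 libraries lay below both Control libraries in 13 of the 32 client kinases and above both in 7. For the 14 receptors and factors these counts were 4 and 3. Over all listed genes 25.6% lay below and 26.3% above. Before adjustment 9 of the 32 and 5 of the 14 had a p under 0.05 in the authors' deposited table. That share was 19.6% over all listed genes.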

How the data were processed

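The labels' protocols describe poly(A)-selected TruSeq libraries. Per the submitters' processing notes, CASAVA 1.8, FastQC, Trim Galore, STAR, DESeq, HTSeq and the build hg19 were used in some role. The sources used here do not give annotation, strand or dispersion settings.

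Per the file headers, the deposited mean columns are a signal (counts over size factors, averaged by group). The authors' fold is the ratio of those means, given also as log2, and the deposited p-value columns hold their DESeq test, raw and Benjamini-Hochberg adjusted. This test at an adjusted p under 0.05 is the main one. Genes below a mean of 5.46 are not analysed here.

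Each mean was solved for 2 whole counts (tolerance 1e-09), with a unique solution for all 16376 genes in both groups. limma 3.58.1 (R 4.3.3, trend) on log2(normalized count + 1), which understates folds of low genes, was the alternative, its p-values adjusted over all genes. Both steps were tested on simulated data. The limma simulation gave both groups the same spread, unlike the Control and H2O2 pairs here, so it does not cover that difference.

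Exonic lengths and 75-base words came from GENCODE 29 (85.2% of listed genes matched), promoters from RefSeq. Members and lists were chosen with earlier results of these data known. All 10 members are described. From other lists, genes past the threshold could be named, at most 6 a list by adjusted p, and others only where said.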

Additional observations from a re-analysis of the deposited data

How the results depend on the processing

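limma called CHORDC1 and AHSA1, and no other member, at pseudocounts of 1, 0.5 and 5, under total-count and upper-quartile scaling, with a mean of at least 50, and after a correction for exonic length chosen after seeing the data. The length correction moved limma's log2 fold change from 0.56 to 0.72 for CHORDC1 and from 0.52 to 0.41 for AHSA1. In the authors' test PTGES3 joined these 2 genes at a threshold of 0.1 and none was lost at 0.01. With each library left out, 0 to 7 members were called higher and 0 to 1 lower, and a group then holds a lone library assumed to vary like the other group. With a mean of at least 50 limma tested 12118 genes and called 122 higher and 338 lower. After the length correction it tested 13948 genes and called 289 higher and 410 lower. Over all listed genes the authors' test called 422 higher and 756 lower. There limma called 249 higher and 422 lower, 246 and 417 at a pseudocount of 0.5, and 257 and 428 at 5. It called 229 and 440 under total-count scaling, and 278 and 377 under upper-quartile scaling. With a library left out these counts ran from 104 to 1741 higher and from 180 to 1900 lower. The sign turned for HSF1, at 0.0026 under upper-quartile scaling and between -0.15 and 0.12 with a library left out, and for HSF2, between -0.33 and 0.17. The causes were not tested. The HSP90AA1 share difference ran from 0.27 to 0.50 percentage points with a library left out and was 0.51 points per exonic length. No paired analysis was possible because the recovered libraries carry no replicate numbers. With 2 libraries a group, the intervals of HSF1 and HSF2 leave moderate changes unresolved.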
